A study of Mus musculus with 5 samples.

Results

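Dividing oligodendrocyte precursors are the cells described here, in single-cell RNA sequencing of the mouse hippocampus at postnatal day 1. They were chosen by raw counts of unique molecular identifiers (UMIs, 1 per captured RNA molecule): at least 1 UMI of Pdgfra, at least 1 of Olig1, at least 2 of Mki67 and Top2a together, at most 1 of Col1a1 and Col1a2 together and 0 of Eomes, in barcodes of 500 or more genes and 1000 or more UMIs, no more than 15% of them mitochondrial. The rule found 353 cells among 30699 kept barcodes, of 40345 barcodes in all. The study set wild-type pups (Trem2 +/+) against Trem2 knockout pups (Trem2 -/-), whose deletion the labels describe no further. Wild type was sampled with 3 libraries (replicates 1, 2 and 3) and the knockout with 2 (replicates 2 and 3). Each library pooled 2 pups. Both libraries numbered 2 are described as male pups only and the others as 1 male and 1 female, while the sex label reads male and female for every library. Wild-type libraries gave 118, 48 and 96 dividing precursors, knockout libraries 46 and 45.

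Oligodendrocyte precursors are the glial cells that divide and later mature into the myelinating cells of the brain. They are held in the cycle largely by platelet-derived growth factor acting on the receptor Pdgfra, while the transcription factors Olig1, Olig2 and Sox10 set their lineage. Mki67, a coat protein of mitotic chromosomes, and Top2a, which untangles DNA, are made from S phase to mitosis. In the hippocampus around birth these precursors are still spreading, and hardly any myelin has formed.

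Over the kept barcodes the libraries held 56762071 to 88314649 UMIs, with medians of 7867 to 9293 UMIs per cell, and pairs of libraries shared 12 to 26 cell barcodes. Trem2 itself checked the labels: in cells with at least 3 UMIs of C1qa and C1qb, which mark microglia, it stood at 1131, 1262 and 663 CPM (counts per 1000000: a gene's UMIs scaled by the UMIs of the summed cells) in wild type and at 46.6 and 63.4 CPM in the knockout libraries. The dividing precursors held 2 Trem2 UMIs in all, both in wild-type replicate 1. Wild-type replicate 3 had the lowest mitochondrial share among the dividing precursors, with a median of 3.49% against 4.34 to 5.34% elsewhere.

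Promoters of the cell-cycle and precursor identity lists were searched for short sequences known from cell-cycle genes. The cell-cycle promoters shown were picked because they hold these sequences. The 130 bases before the annotated start are shown, and only genes with a usable promoter sequence were considered. Shown first are the 4 most abundant G2 and mitosis genes that hold both the CHR letters TTTGAA and the letters CCAAT there. The 2 most abundant S-phase genes that hold 1 of the E2F words TTTGGCGC, TTTCGCGC, TTTCCCGC or TTTGCCGC follow. For contrast come the 2 most abundant precursor genes among those considered. Olig1 is more abundant than Pdgfra but is not shown. Sequences are from RefSeq on GRCm38.p6, 5′ to 3′ on the gene's strand, and capitals mark any of these words on either strand, so that TTCAAA and ATTGG are also capitals.
Hmgb2: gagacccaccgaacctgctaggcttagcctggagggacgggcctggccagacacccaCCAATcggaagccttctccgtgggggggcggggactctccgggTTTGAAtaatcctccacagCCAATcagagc
Ube2c: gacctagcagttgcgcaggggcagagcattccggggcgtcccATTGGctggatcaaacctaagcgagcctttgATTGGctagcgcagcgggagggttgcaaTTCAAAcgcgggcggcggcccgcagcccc
Prc1: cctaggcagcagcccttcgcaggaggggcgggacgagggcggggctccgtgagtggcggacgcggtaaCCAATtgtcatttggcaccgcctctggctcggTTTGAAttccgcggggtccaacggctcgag
Ckap5: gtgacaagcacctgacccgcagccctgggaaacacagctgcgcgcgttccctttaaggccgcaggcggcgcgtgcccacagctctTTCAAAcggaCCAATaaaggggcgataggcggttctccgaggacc
Mcm6: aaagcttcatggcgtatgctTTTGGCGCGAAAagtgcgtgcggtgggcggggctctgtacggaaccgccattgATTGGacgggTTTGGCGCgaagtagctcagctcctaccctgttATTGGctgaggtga
Dtl: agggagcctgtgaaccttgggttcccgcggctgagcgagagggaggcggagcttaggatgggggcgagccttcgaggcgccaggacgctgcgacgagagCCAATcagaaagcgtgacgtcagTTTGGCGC
Ptprz1: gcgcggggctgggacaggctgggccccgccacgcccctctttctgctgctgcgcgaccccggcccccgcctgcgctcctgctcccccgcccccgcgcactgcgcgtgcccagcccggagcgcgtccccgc
Pdgfra: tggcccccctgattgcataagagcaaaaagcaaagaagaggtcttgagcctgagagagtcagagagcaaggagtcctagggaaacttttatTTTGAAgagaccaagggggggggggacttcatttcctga
These stretches lie at chr8:57511713-57511842 (plus strand), chr2:164769799-164769928 (plus), chr7:80294346-80294475 (plus), chr2:91526632-91526761 (plus), chr1:128359706-128359835 (minus), chr1:191575545-191575674 (minus), chr6:22875372-22875501 (plus) and chr5:75152121-75152250 (plus), in the order shown. The first run of capitals in Mcm6 is a pair of E2F words on opposite strands that overlap. The CHR word begins 29 or 30 bases before the start in Hmgb2, Ube2c and Prc1.

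Over the whole window of the table, 250 bases before to 50 after a start, CHR and CCAAT occurred together in 30 of 50 promoters of the G2 and mitosis list (60%) against 6.95% of all 32851 promoters. Among the S-phase promoters 4 of 35 (11.4%) held both, and among the precursor identity promoters 4 of 31 (12.9%). The E2F words stood in 13 of 35 S-phase promoters (37.1%), in 2 of 50 G2 and mitosis promoters and in none of the 31 precursor promoters, against 2.26% of all. The table matched 45 of 53, 31 of 43 and 23 of 31 genes of these lists. A match describes letters only. CHR and CCAAT are known as binding words of the complexes that hold mitotic genes silent in resting cells and switch them on late in the cycle, and E2F words as those of the factors that start DNA replication genes.

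The label was checked on genes the rule did not use. Sox10, a lineage factor of all oligodendroglia on chromosome 15 (79154908-79165240, minus strand, mm10), stood at 168 to 194 CPM in the 5 libraries and had a UMI in 80.2% of the dividing precursors, against 0.407% of postmitotic excitatory neurons (cells with at least 3 UMIs of Neurod6 and none of Mki67 and Top2a). Cspg4, the NG2 proteoglycan by which precursors are commonly stained, had a UMI in 83.0% and Olig2 in 95.8%. At least 1 UMI of Sox10 or Cspg4 was found in 323 of 353 cells (91.5%, 95% Wilson interval 88.1 to 94.0), and Sox10, Olig2 and Cspg4 were all at 0 in 3 cells. Microglial markers summed to 10.4 to 18.1 CPM in 4 libraries and to 91.8 CPM in wild-type replicate 1, and all 12 of them had at least 1 UMI. At least 3 Neurod6 UMIs were present in 18 cells (5.10%), 2, 5 and 8 from wild-type and 0 and 3 from knockout libraries. Intervals here cover counting error only.

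Cells just outside the rule show where its limits fall. With Mki67 and Top2a together at exactly 1 UMI there were 105 further precursors, and with exactly 2 UMIs 48 members. Their G2 and mitosis list, which leaves out Mki67 and Top2a, came to 12.7 UMIs per 10000 at 1 UMI, 22.7 at 2 UMIs and 116.1 at 3 or more. The receptor set a wider limit than the other terms: 770 cells met every other term with no Pdgfra UMI, while 17 lacked only Olig1, 15 were left out by Eomes and 12 by the collagens. The 770 cells had a different profile. Their precursor identity list summed to 3851 to 4911 CPM over the libraries, against 8072 to 10342 CPM in the members, and their radial glia and astrocyte markers to 4023 to 5014 CPM, against 607 to 1225 CPM. These cells are not members.

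Among precursors, cells with division transcripts differed widely in cell-cycle genes and little in identity genes. Dividing precursors were set beside 704 precursors with 0 UMIs of Mki67 and Top2a, with no test, since the rule used these counts. Of 7598 genes compared, 5.13% were at least 2-fold higher in the median and higher in all 5 libraries, and 0.54% were at least 2-fold lower and lower in all 5. Within the G2 and mitosis list 53 of 53 genes were higher in all 5 libraries, against 14.5% of all genes, and 52 by at least 2-fold, with a median log2 ratio of 4.72. All 42 S-phase genes with at least 100 UMIs were higher in all 5 libraries and 39 by at least 2-fold, with a median log2 ratio of 2.17 (all genes: -0.07). The cells also held more RNA molecules: median UMIs per cell were 11368, 12314 and 9978 in wild-type and 10754 and 10565 in knockout dividing precursors, 1.39 to 1.54 times those of the non-dividing ones in the same libraries. The rule asks for at least 2 UMIs in one class and 0 in the other, which by itself favours deeper droplets among the dividing cells.

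The cell-cycle genes covered every stage from replication to cytokinesis. Hist1h1b, a linker histone made with new DNA, was higher by a median log2 ratio of 6.86 (6.18 to 7.76 over libraries). Prc1, which bundles the microtubules of the dividing cell's midzone, differed by 6.85 and Ube2c, which hands ubiquitin to mitotic cyclins, by 6.04. Ccnb1, the cyclin of mitotic entry, had 992 UMIs in dividing precursors and 5 in the others, so its log2 ratio was at least 6.39, and that of Hmmr, a spindle protein with 838 UMIs against 2, was at least 6.23. Replication genes were already measurable in precursors without Mki67 and Top2a UMIs and differed less: Pcna, the sliding clamp of DNA polymerase, by 2.01 and Mcm6, a subunit of the replicative helicase, by 1.63. The 6 cell-cycle genes whose promoters are shown above ranged from 1.45 for Ckap5 and 4.03 for Hmgb2 to 6.85 for Prc1, and Dtl differed by 2.98.

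A pair of inhibitors of the cycle was also higher in the dividing cells. Cdkn2c, an inhibitor of the cyclin D kinases, stood at 95.2, 90.3 and 76.6 CPM in wild-type and 106 and 77.6 CPM in knockout dividing precursors, against 8.83 to 19.4 CPM in non-dividing ones. The lowest dividing library lay above the highest non-dividing one, and so it did for Cdkn2d, of the same family, at 108 to 140 against 27.8 to 43.0 CPM. Ccnd1, the cyclin through which growth factors drive cells out of G1, did not follow this split, with 558, 444, 507, 518 and 416 CPM in dividing and 534, 482, 647, 555 and 508 CPM in non-dividing cells. It is abundant in precursors whether or not they held Mki67 and Top2a. Of 19 cyclin, inhibitor and E2F genes with at least 100 UMIs, 8 were higher in all 5 libraries, 5 of them by at least 2-fold. Of all genes 14.5% were higher in all 5 libraries, and 5.13% were so by at least 2-fold. The inhibitors did not all differ alike: Cdkn1b had a median log2 ratio of 0.23, and Cdkn1c was lower in 4 of 5 libraries.

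Identity genes differed little between the states. Without the rule genes, none of 27 identity genes with at least 100 UMIs differed by 2-fold in either direction; 10 were lower in all 5 libraries, where 15.7% of all genes were, and none higher, with a median log2 ratio of -0.25. The lineage factors Olig2 and Sox10 had median log2 ratios of 0.07 and -0.12 with ranges that included 0. Ptprz1, a receptor phosphatase of the cell surface with the most UMIs of the list, stood at 2223, 1604 and 2669 CPM in wild-type and 2041 and 2028 CPM in knockout dividing precursors, and was lower than in non-dividing ones in 5 of 5 libraries by a median log2 ratio of -0.21. C1ql1, a secreted complement-like protein, came nearest to a 2-fold difference. It stood at 104 to 195 CPM in dividing and at 248 to 343 CPM in non-dividing precursors, so that the ranges did not overlap.

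The same genes were followed along a graded scale of division. Precursors were binned by Mki67 and Top2a UMIs into 0, 1, 2 to 4, 5 to 9 and 10 or more, and the median over libraries was taken. Along these bins the G2 and mitosis list went from 1022 through 1786, 4205 and 9248 to 16512 CPM. The median of the S-phase list was highest one bin earlier, with 1031, 1734, 2849, 5336 and 4840 CPM, although in wild-type replicate 3 and knockout replicate 3 the last bin was higher (4880 and 4606 against 4467 and 3515 CPM). Pdgfra, a rule gene, stood at 686, 770, 571, 649 and 698 CPM in the same bins, and Sox10 at 187, 146, 172, 183 and 181 CPM. C1ql1 went down from 298 over 250, 206 and 139 to 152 CPM, and Fabp7, a fatty acid binding protein of glial progenitors, from 7624 CPM in the first bin to 5521 CPM in the last. Cells with more total UMIs reach higher bins more easily, so the bins also differ in depth.

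**Figure D1:**
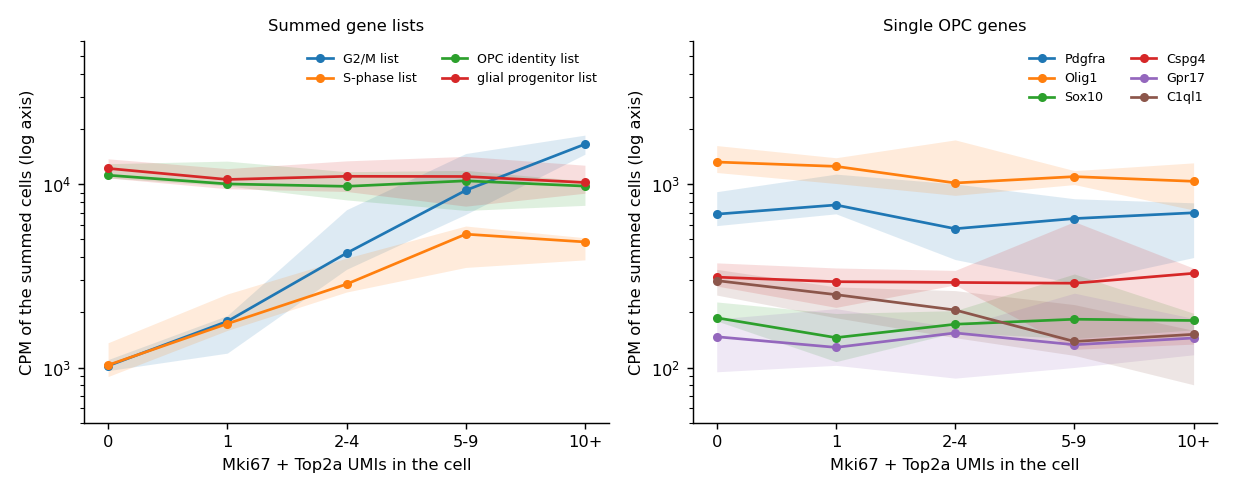
Summed CPM (log axis) of gene lists (left) and of single precursor genes (right) in precursors binned by their Mki67 and Top2a UMIs; lines join medians over 5 libraries and bands span the lowest to the highest library. The G2 and mitosis list goes from 1022 to 16512 CPM while the Sox10 line stays between 146 and 187 CPM.

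The members were spread over the cycle. Per cell, Mki67 and Top2a together had a median of 12 UMIs, with a lower quartile of 4 and a maximum of 112. In 108 of 353 cells (30.6%) the S-phase list had more UMIs than the G2 and mitosis list. Wild-type libraries had shares of 33.9, 37.5 and 29.2%, knockout libraries of 23.9 and 24.4%, both knockout values below all wild-type values. Each knockout share rests on 11 cells, and the difference was not tested. Scaled to 10000 UMIs, the G2 and mitosis list ranged from 6.69 to 427 over cells with a median of 101, and the S-phase list from 2.14 to 111 with a median of 41.6. The highest G2 and mitosis values lay at low S-phase values.

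**Figure D2:**
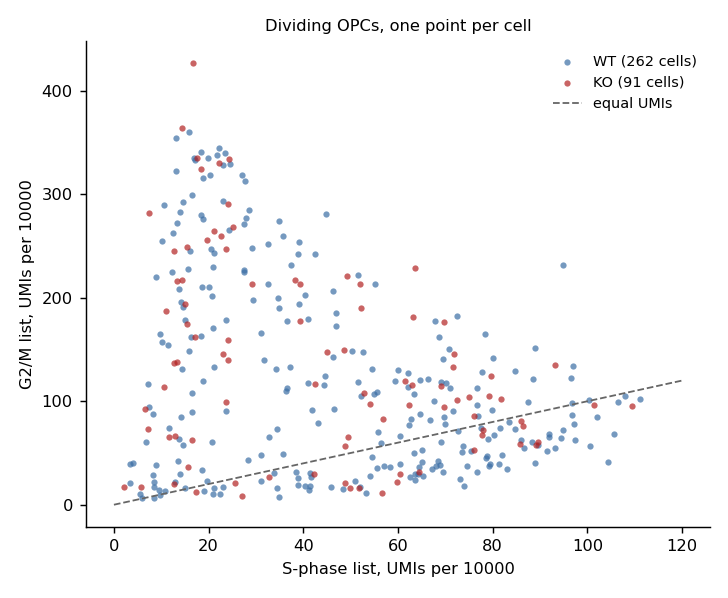
UMIs per 10000 of the S-phase list (horizontal) and of the G2 and mitosis list (vertical) in each of the 353 dividing precursors, with wild-type cells in blue and knockout cells in red; on the dashed line both are equal. The 108 cells below or to the right of the line have more S-phase UMIs, and cells above 300 on the vertical axis have low S-phase values.

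Within the members, genes of early and later stages of the lineage were both found. Egfr, a growth factor receptor of early glial progenitors, had a UMI in 20.1% of the members, and Gpr17, a receptor of committed precursors, in 66.3%. In excitatory neurons Egfr and Gpr17 had a UMI in 1.34 and 0.198% of cells. Cells were then thinned to 4000 UMIs, and those with fewer were left out. The shares in dividing precursors were then 9.47 and 41.7%, and in non-dividing ones 8.67 and 39.8%. Gpr17 was found in 71.2, 83.3 and 58.3% of the members from wild-type libraries and in 56.5 and 62.2% of those from knockout libraries, so that the groups overlapped.

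Myelin genes ranged from no UMI to early ones at measurable levels. Mag, Mog, Opalin and Aspa, which belong to mature oligodendrocytes, had 0 UMIs in the dividing precursors of all libraries, and 0 of 353 cells allows a share of up to 0.850% of cells with a UMI. Cnp, an enzyme of the myelin sheath that is made early, stood at 76.9 to 119 CPM, and Mbp, the myelin basic protein, at 17.9 to 41.8 CPM. Cldn11, the tight-junction protein of myelin, differed between the states. It had 11.7, 26.6 and 15.1 CPM in wild-type and 13.8 and 13.9 CPM in knockout dividing precursors, against 0 to 4.85 CPM in non-dividing ones, and a UMI in 13.6% against 1.70% of cells (5.62% against 1.08% after thinning). With 64 UMIs in all it rests on few molecules.

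Receptors and channels typical of precursors were measured at similar levels in both states. Of 24 glutamate receptor and channel genes, none differed by 2-fold. In all 5 libraries 5 of them were lower and 1 higher, where 15.7% of all genes were lower and 14.5% higher. Gria2, the AMPA receptor subunit that blocks calcium, had 494 to 688 CPM in dividing precursors, and Cacng4, which escorts AMPA receptors to the membrane, 265 to 354 CPM. Feedback genes of growth factor signalling were present throughout, with Spry1, Spry2 and Spry4, which damp ERK signalling, at 63.5 to 94.6, 45.8 to 98.5 and 44.4 to 67.7 CPM. None of 16 genes of that list differed by 2-fold. Among Notch genes, Notch1 had 143 to 176 CPM in dividing and 93.1 to 148 CPM in non-dividing cells, while its ligands Dll1 and Dll3 were lower in the dividing cells in 5 of 5 libraries, by median log2 ratios of -0.60 and -0.57. Nuclear subunits of respiratory complex I had a median log2 ratio of -0.11, close to the -0.07 of all genes, with 14 of 36 lower and 3 higher in all 5 libraries, where 15.7% of all genes were lower and 14.5% higher.

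The genes lowest in dividing relative to non-dividing precursors differed far less than the cell-cycle genes. Cd1d1, a lipid-presenting molecule, had the largest difference at a median log2 ratio of -1.64, with 28 UMIs against 118, and Caly, a vesicle protein, differed by -1.48. Nudt18, AI413582, Ptprn, Ier3, Jmjd8, Tcp11l2 and Tstd3 followed with -1.57 to -1.23. All 9 are low in both classes, at most 407 UMIs over the non-dividing cells. Few neuronal markers were lower in every library: the excitatory marker list had a median log2 ratio of -0.77 over 5 genes, of which 1 was lower in all 5 libraries, and the general neuronal list one of -0.34 over 10 genes, of which 1 was.

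Set beside other dividing cells, the members differed more in identity genes than in cell-cycle genes, while all 3 classes were chosen on Mki67 and Top2a. Dividing cells with at least 2 UMIs of Slc1a3 and none of Pdgfra, Olig1 or Eomes numbered 751, and dividing cells with Eomes, the factor of excitatory intermediate progenitors, and neither Pdgfra nor Olig1 numbered 818. The first class is called by its rule, since ependymal and endothelial genes such as Rsph1 and Cldn5 led it. Against it 5.78% of 10850 genes were at least 2-fold higher and 18% at least 2-fold lower in the members; against the Eomes cells 7.31 and 6.64% of 9854. These are descriptions without a test. In the identity list without the rule genes 26 of 27 genes were at least 2-fold higher in the members against either class, with median log2 ratios of 3.68 and 4.48. Over the S-phase list the medians were 0.55 and -0.16 and over the G2 and mitosis list 0.52 and -0.11. Against the Slc1a3 class 27 of 43 S-phase and 34 of 53 G2 and mitosis genes were higher in all 5 libraries, where 21.5% of all genes were (34.2% were lower). Against the Eomes class 16 S-phase and 9 G2 and mitosis genes were lower in all 5 libraries, where 23.7% of all genes were (20.6% were higher).

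Beyond the rule genes the sharpest differences from the Slc1a3 class were in oligodendroglial genes. Sox10 had 740 UMIs in the members and 1 in the Slc1a3 class, so its log2 ratio was at least 7.35, and Gpr17 had 610 against 1 (at least 7.05). Lhfpl3, a membrane protein enriched in precursors, differed by 7.77 and Cspg4 by 5.96; Bcas1, a protein of early myelinating cells, by 5.96. Vxn, Brinp3 and Stk32a lay between 6.05 and 6.69. Fabp7 was shared more evenly, at 5082 to 7898 CPM in the members and 3140 to 5592 CPM in the Slc1a3 class. Vim, an intermediate filament of radial glia, went the other way, with 464 to 650 CPM in the members and 1392 to 1890 CPM in the Slc1a3 class.

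**Figure D3:**
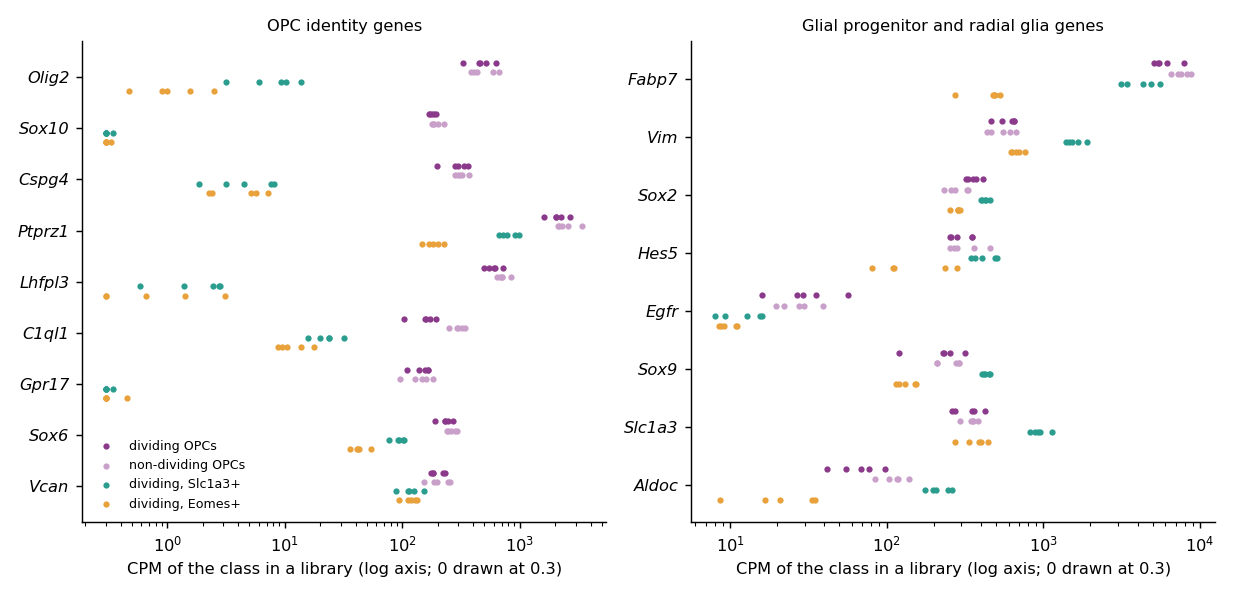
CPM (log axis, 0 drawn at 0.3) of precursor identity genes (left) and glial progenitor genes (right) in 4 classes of cells, with 1 point per library. In both precursor classes identity genes lie close together, with Sox10 at 168 to 194 CPM in the dividing one, and in both other dividing classes they lie lower; Vim is highest in the Slc1a3 class.

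Transcription factors of forebrain regions set the members apart from the dividing cells around them. Lhx2, a factor of the dorsal forebrain, had 103, 115 and 92.7 CPM in wild-type and 110 and 63.7 CPM in knockout members, against 384 to 624 CPM in the Slc1a3 class and 680 to 857 CPM in the Eomes class. Emx1, which marks the dorsal pallium from which hippocampal neurons arise, had 3.94 to 12.1 CPM against 55.5 to 86.4 and 156 to 176 CPM. Of 7 regional genes with at least 100 UMIs in either class, 6 were lower in the members in all 5 libraries against the Slc1a3 class (all genes: 34.2%). Against the Eomes class 7 were (all genes: 23.7%), and 0 were higher in all 5 libraries against either. Nkx2-1, which marks the ventral forebrain and had fewer than 100 UMIs, went in the opposite direction. It had 13.8, 31.1 and 16.1 CPM in wild-type and 13.8 and 23.9 CPM in knockout members, at most 0.698 CPM in the Slc1a3 class and at most 0.516 CPM in the Eomes class. A UMI of Nkx2-1 was present in 15.6% of dividing and 13.8% of non-dividing precursors and in 0.165% of excitatory neurons. Lhx8, Hoxb3 and Hoxb4 had no UMI in the members.

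Cyclin use also differed between the dividing classes. Ccnd1 stood at 416 to 558 CPM in the members, 84.5 to 152 CPM in the Slc1a3 class and 30.5 to 58.3 CPM in the Eomes class, with no overlap. Ccnd2, its relative, had 344, 311, 327, 382 and 153 CPM in the members and 765 to 1049 CPM in the Eomes class. Cholesterol synthesis genes were higher in the members than in Eomes cells. Of 21 such genes 11 were at least 2-fold higher, where 7.31% of all genes were, and their median log2 ratio was 1.12. Against the Slc1a3 class none of 21 differed by 2-fold (median 0.40). The level was not particular to dividing precursors: the list summed to 1534 to 2434 CPM in the members and 1845 to 2711 CPM in non-dividing precursors.

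Whether Trem2 loss changed the number of dividing precursors was asked over libraries. Dividing precursors made up 1.85% (95% Wilson interval 1.55 to 2.21), 1.02% (0.769 to 1.35) and 1.13% (0.925 to 1.38) of kept cells in wild type and 0.821% (0.616 to 1.09) and 0.817% (0.611 to 1.09) in the knockout libraries. Both knockout values lay below all wild-type values, but the intervals overlapped those of wild-type replicates 2 and 3. The means were 1.33% ± 0.454 (SD, n = 3) and 0.819% ± 0.00293 (SD, n = 2), and the two-sided exact permutation p was 0.2 (0.4 adjusted over 4 comparisons), where 10 assignments allow no p below 0.1. For a comparison at equal depth, cells were thinned to 4000 UMIs, those with fewer were left out and the rule was applied again. The shares were then 1.31, 0.562 and 0.882% against 0.551 and 0.686%, so that the groups overlapped. Without thinning, leaving out wild-type replicate 1 gave a difference of -0.254 instead of -0.514 percentage points. In a pool of dissociated tissue a share also moves with every other cell type: excitatory neurons made up 24.0, 25.2 and 30.2% of cells in wild type, and in the knockout libraries 36.5 and 31.8%, and the part of this in the result was not tested.

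All precursors, dividing or not, followed the same order more clearly. They made up 5.66, 4.09 and 3.83% of kept cells in wild type and 2.52 and 2.58% in the knockout libraries, a comparison added after the data were seen. The means were 4.53% ± 0.987 (SD, n = 3) and 2.55% ± 0.0432 (SD, n = 2), with an exact permutation p of 0.1, the smallest possible (0.4 adjusted). The knockout values stayed below all wild-type values after thinning and after leaving out cells with at least 3 UMIs of Neurod6, of C1qa and C1qb or of Cldn5. Neither of the other dividing classes showed this order: the Slc1a3 class made up 2.86, 3.41 and 2.01% against 2.41 and 1.85%, and the Eomes class 3.22, 3.48 and 2.09% against 2.55 and 2.32%.

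The share of precursors that were dividing overlapped between the groups. It was 32.8% (118 of 360), 24.9% (48 of 193) and 29.4% (96 of 326) in wild type and 32.6% (46 of 141) and 31.7% (45 of 142) in the knockout libraries. Thinned to 4000 UMIs per cell, with shallower cells left out, it was 26.3, 15.7 and 25.3% against 25.5 and 28.4%. Wild-type replicate 2 lay apart from the others, and both groups overlapped. The unthinned means were 29.0% ± 3.97 (SD, n = 3) and 32.2% ± 0.660 (SD, n = 2), with an exact permutation p of 0.5. Median UMIs per dividing precursor did not separate the groups either (exact permutation p = 0.6).

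**Figure D4:**
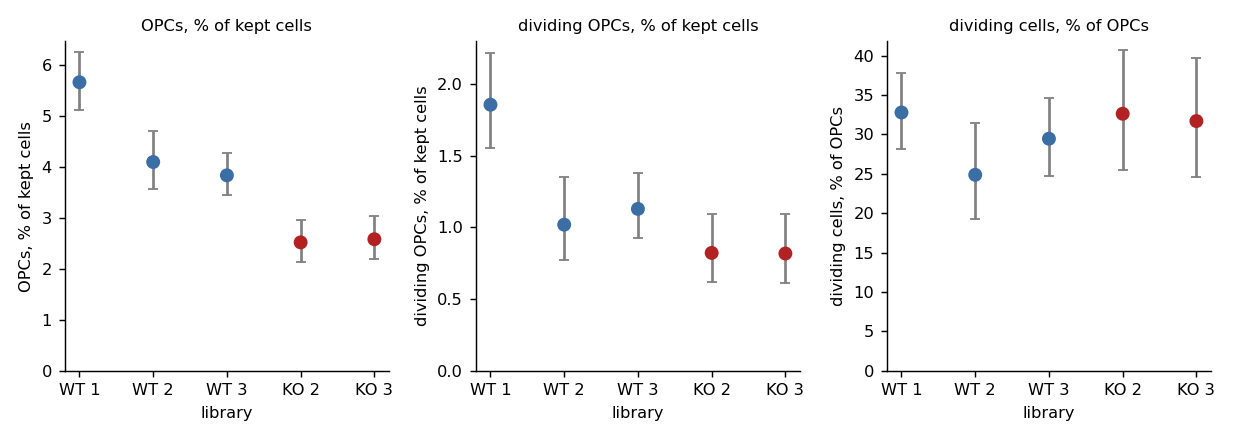
Precursors as percent of kept cells (left), dividing precursors as percent of kept cells (middle) and dividing cells as percent of precursors (right), 1 point per library with 95% Wilson intervals, wild type in blue and knockout in red. Knockout points lie below all wild-type points in the left and middle panels and among them in the right panel.

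No gene passed the test for a genotype effect within dividing precursors. Summed counts of 8553 genes were tested with edgeR's quasi-likelihood test, and 0 had a Benjamini-Hochberg adjusted p under 0.05 (percent called: 0); the smallest was 0.778. DESeq2 also called 0, and 340 genes had an unadjusted edgeR p under 0.05, 137 with higher and 203 with lower fitted values in the knockout libraries. In non-dividing precursors edgeR called 0 of 9741 (percent called: 0), and 396 had an unadjusted p under 0.05; with DESeq2 5 were called. The labels do not say whether pups of different libraries came from separate litters, so p-values measure the spread between these libraries. The values that follow are given as values, not as changes.

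The 4 lowest p in the downward direction belonged to 3 genes that are high in neurons and to S100a6. Grin2b, an NMDA receptor subunit, had 38.6, 47.4 and 87.7 CPM in wild-type and 9.85 and 11.9 CPM in knockout dividing precursors, a log2 fold change of -2.39 ± 0.468 (SE). Stmn2, a microtubule regulator of growing axons, had 226, 475 and 490 against 102 and 189 CPM (-1.45 ± 0.314), and S100a6, a calcium-binding protein, 230, 260 and 242 against 63.0 and 147 CPM (-1.23 ± 0.252). Bhlhe22, a neuronal transcription factor, had 43.5, 40.0 and 57.5 against 13.8 and 17.9 CPM (-1.57 ± 0.348). In these 4 genes the groups did not overlap, as in 9.9% of all tested genes in this direction, and the edgeR adjusted p was 0.778. Neuronal transcripts in these cells were concentrated in few droplets: a single droplet held 47.4% of the Stmn2 UMIs of wild-type replicate 1, 29.3 and 23.5% in wild-type replicates 2 and 3, and 7.69 and 35.8% in the knockout libraries. The excitatory marker list summed to 168, 281 and 319 CPM in wild-type and 122 and 181 CPM in knockout members, all 10 genes with at least 1 UMI; its part in the result was not tested.

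The 4 lowest p in the upward direction belonged to genes of different roles. Arhgap11a, a GTPase-activating protein, had 71.1, 57.7 and 69.6 against 122 and 117 CPM, a log2 fold change of 0.83 ± 0.195 (SE, edgeR adjusted p = 0.927). Tubb4b, a tubulin of the G2 and mitosis list, had 521, 392 and 494 against 640 and 930 CPM (0.72 ± 0.181), although 1 droplet held 38.3% of its UMIs in knockout replicate 3. Cuedc1 had 69.0, 78.4 and 69.6 against 128 and 109 CPM, and Ier2, an immediate early gene, 112, 88.8 and 123 against 231 and 141 CPM. Groups did not overlap in these genes, as in 10.9% of all tested genes in this direction, and the edgeR adjusted p of Tubb4b, Cuedc1 and Ier2 was 0.998.

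The G2 and mitosis genes leaned upward in the knockout members without a call. Of 53 G2 and mitosis genes 48 had fitted log2 fold changes above 0, with a median of 0.26 (all genes: -0.00), 0 passed, and 21 had both knockout libraries above all wild-type ones, where 10.9% of all tested genes did. Cenpf, a kinetochore protein, had 870, 644 and 721 against 1117 and 965 CPM, Bub1b, a kinase of the spindle checkpoint, 98.7, 96.2 and 70.6 against 164 and 107 CPM, and Tpx2, a spindle assembly factor, 364, 281 and 341 against 532 and 372 CPM; their edgeR adjusted p was 0.998. The list summed to 13576, 10803 and 11311 CPM in wild-type and 15050 and 13742 CPM in knockout members. The S-phase list did not lean: 21 of 43 genes were above 0 and the sums were 4790, 3655 and 4287 against 4720 and 3945 CPM. The share of members with more S-phase than G2 and mitosis UMIs, given above, was lower in both knockout libraries, and its part in these values was not tested.

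**Figure D5:**
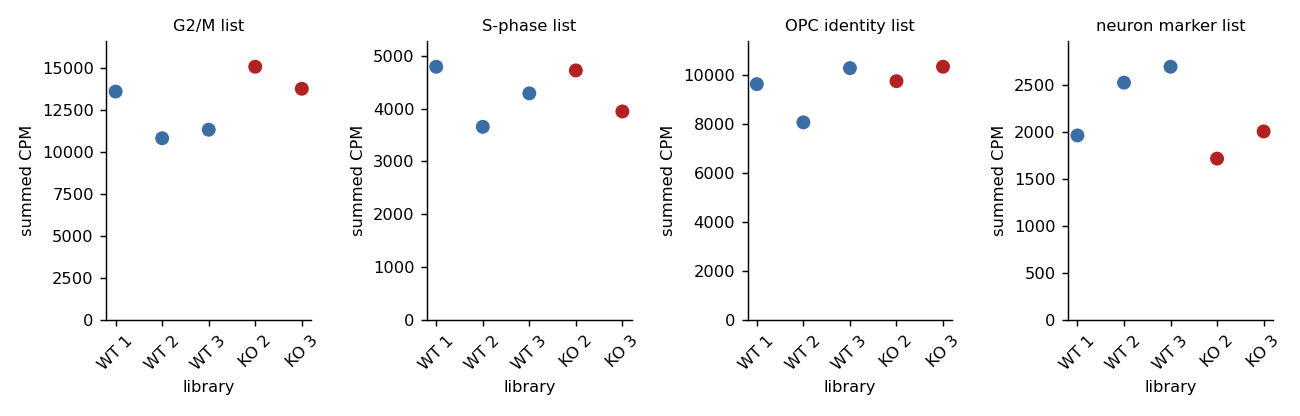
Summed CPM of 4 gene lists in the dividing precursors of each library, wild type in blue and knockout in red, each axis from 0. Knockout points lie above all wild-type points for the G2 and mitosis list, with 15050 and 13742 CPM, and overlap with them for the S-phase, precursor identity and neuron marker lists.

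Identity genes of precursors leaned less than the G2 and mitosis genes. Of 28 tested without the rule genes, 18 had a fitted log2 fold change above 0, with a median of 0.08. In 6 of the 28 both knockout libraries lay above all wild-type ones, a larger share than the 10.9% of all tested genes. In 0 they lay below, where 9.9% of all tested genes did. Sox8, a relative of Sox10, had 94.5, 87.3 and 77.6 against 146 and 127 CPM (0.64 ± 0.194, edgeR adjusted p = 0.998). Hes1, a target of Notch on the glial progenitor list, had 60.0, 47.4 and 64.5 against 94.6 and 91.6 CPM. Among regional genes Zbtb20, a factor of the developing hippocampus, had 918, 1244 and 766 against 544 and 659 CPM, and Nfib, a glial and neuronal factor of the progenitor list, 747, 787 and 637 against 500 and 543 CPM, neither with overlap (9.9% of all tested genes in this direction). Both genes are also high in the dividing Eomes cells, at 3003 to 3510 and 2475 to 2945 CPM. Other lists leaned downward, with 0 called. Of 10 radial glia and astrocyte markers 8 were below 0 and 2 above, with a median of -0.59. Knockout values lay below all wild-type ones in 4 and above in 1 (all tested genes: 9.9 and 10.9%). Of 23 glutamate receptor and channel genes 17 were below 0 and 6 above, with 5 and 2 not overlapping. Of 7 regional genes 6 were below 0 and 1 above.

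Energy metabolism, the subject of the study's title in neurons, was read in the same cells. Of 36 complex I genes 12 had fitted log2 fold changes above 0 and 24 below, with a median of -0.05, and 0 passed. Ndufa6 had 175, 161 and 202 against 142 and 133 CPM and Ndufs1 56.6, 41.4 and 54.4 against 69.0 and 79.6 CPM, in opposite directions (edgeR adjusted p = 0.998 for both). The list summed to 9027, 8658 and 9096 CPM in wild-type and 8432 and 8949 CPM in knockout members, and the groups overlapped. Cholesterol synthesis genes had 17 of 21 above 0 with a median of 0.15 and 0 called; Fdps, which makes farnesyl units, had 227, 179 and 213 against 329 and 237 CPM.

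The genotype effect itself was compared between dividing and non-dividing precursors in 1 model, in which each library was its own block. Of 9833 genes 15 had an edgeR adjusted p under 0.05 (0.153% called), all with a negative interaction term (0% called with a positive one), and 569 had an unadjusted p under 0.05. DESeq2 called 1, Stmn2. The 15 were Stmn2, Meg3, Nrgn, Mllt11, Grin2b, Map1b, Gap43, Nefl and Hs3st4, which are high in neurons, C1qa, C1qb, Pf4 and Mrc1, which belong to microglia and macrophages, Cldn5 of endothelial cells, and S100a6. None is on the precursor identity or cell-cycle lists. In Pf4 the 158 UMIs of the non-dividing class in knockout replicate 2 came to 74.1% from 1 droplet, and all 29 UMIs of the dividing class in wild-type replicate 1 from 1 droplet. Of the 493 Stmn2 UMIs in non-dividing cells of knockout replicate 3, 46.9% came from 1 droplet. When cells marked by Scrublet were left out 2 genes were called, and 1 when cells with at least 3 UMIs of Neurod6, of C1qa and C1qb or of Cldn5 were left out.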

How the data were processed

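Deposited values were raw counts of UMIs per gene and barcode, per the file headers and the values, with no normalization by the authors. Per the submitters' processing notes Cell Ranger 6.1 and build mm10 were used; their annotation release: not given in the sources used here. Libraries were 3' tag libraries of papain-dissociated tissue, per the labels' protocols. The members and gene lists were chosen with earlier results of these data known. Counts were summed per library and class; the 5 sums held 502417 to 1449151 UMIs in dividing precursors. Genotype was tested with edgeR 4.0.16 (quasi-likelihood, TMM, its low-count filter, 3 wild-type against 2 knockout libraries), and the scripts were tested on simulated data. DESeq2 was 1.42.0 and Scrublet ran in scanpy 1.11.5. Class ratios used genes with at least 100 UMIs in the higher class and a floor of 3 counts in the lower. Rule genes were left out of list counts and sums. Shares were compared by exact permutation. Positions are from GENCODE M21 on GRCm38, which is mm10. Doublets were kept, since the rule keeps them. Named were the rule genes and Trem2, up to 10 members per list by CPM and those under 1 CPM, up to 4 per direction by smallest p where fewer passed, up to 4 per list by smallest p, and up to 10 per direction between classes. C1ql1, Sox10, Cspg4, Egfr, Dll1, Dll3, Pcna, Mcm6 and the promoters' genes, and the called genes other than the largest, were chosen after their values were seen. Alternatives were other tests, size factors and filters, leaving out libraries, other limits on cells, a replicate block and thinning. Thinning left out cells with fewer than 4000 UMIs. Some genes that the naming rule picks are not reported here.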

Additional observations from a re-analysis of the deposited data

Results flagged for a closer look

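The difference of the genotype effect between dividing and non-dividing precursors passed edgeR's interaction test, with Benjamini-Hochberg adjustment and each library as a block, for 15 genes. For 4 genes of microglia and macrophages nearly all UMIs came from 2 classes of cells, 1 library each. Pf4 (adjusted p = 1.33e-06) had 29 UMIs in dividing precursors of wild-type replicate 1, all in 1 droplet, and 158 in non-dividing precursors of knockout replicate 2. C1qa (adjusted p = 0.000327) had 19 and 61 UMIs there, Mrc1 (adjusted p = 0.000558) 20 and 63, and C1qb (adjusted p = 0.00491) 25 and 46. Microglial markers summed to 91.8 CPM in the first of these classes and to 417 CPM in the second, where 10.4 to 21.9 CPM were measured in the other libraries and classes of precursors. Cldn5, an endothelial gene (adjusted p = 0.0436), had 35 UMIs in dividing precursors of wild-type replicate 3 and 56 in non-dividing ones of knockout replicate 2.

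Genes that are high in neurons made up most of the others. In knockout replicate 3 all 9 had higher levels in non-dividing than in dividing precursors, and in knockout replicate 2 all but Nrgn (22.6 against 39.4 CPM) and Nefl (12.9 against 15.8 CPM) did. Stmn2 (adjusted p = 5.83e-06) had 102 and 189 CPM in dividing and 341 and 731 CPM in non-dividing knockout cells, against 226 to 490 and 279 to 543 CPM in wild type. Meg3, a long noncoding RNA (adjusted p = 0.00315), had 258 and 199 CPM against 610 and 1420 CPM in the knockout libraries. Nrgn had an adjusted p of 0.00884, Mllt11 of 0.0109, Grin2b of 0.0123, Map1b of 0.0314, Gap43 and S100a6 of 0.036, Nefl of 0.0435 and Hs3st4 of 0.0436. In non-dividing cells of knockout replicate 3 a single droplet held 74% of the Nefl, 80% of the Hs3st4 and 46.9% of the Stmn2 UMIs. With cells holding at least 3 UMIs of Neurod6, of C1qa and C1qb or of Cldn5 left out, 1 gene was called in place of 15.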

How the results depend on the processing

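No share or median changed direction under any alternative, and no exact permutation p can pass 0.05 with these groups. Leaving out 1 library at a time gave knockout minus wild-type differences of 1.044 to 4.998 percentage points for dividing cells among precursors, -0.672 to -0.254 for dividing precursors among kept cells and -2.33 to -1.41 for all precursors among kept cells. Genes called for genotype in dividing precursors numbered 0; 31 were called without a filter on low counts, and 0 to 3 (3 without wild-type replicate 1) leaving out 1 library. In non-dividing precursors DESeq2 called 5, a limit of 5% mitochondrial UMIs gave 11, no filter 69, a covariate for male pups 4, and leaving out 1 library 0 to 35 (14 without knockout replicate 2, 35 without knockout replicate 3). The interaction's 15 calls became 1 with DESeq2, 5 with at least 3 UMIs of Mki67 and Top2a, 2 without cells marked by Scrublet, 1 without cells holding other types' markers, 68 without a filter, and 10 to 28 leaving out 1 library (28 without wild-type replicate 3, 27 without knockout replicate 3). Of 153 values for these 15 genes under alternatives, 66 lost the threshold and 2 changed sign. The causes were not tested, other than the removal of cells itself. Log2 fold changes that changed sign were those of Tubb3 (0.0028 with at least 3 UMIs of Mki67 and Top2a), Gpr17 (0.046 with at most 5% mitochondrial UMIs) and, without cells holding other types' markers, of the interaction for Nrgn (0.015) and Map1b (0.018).

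Same-numbered libraries are not described as sharing pups or litters, but both numbered 2 are described as male only, against their sex label. A covariate for male pups, taken from the descriptions, called 0 genes in dividing precursors. With a replicate block 32 genes were called in dividing and 58 in non-dividing precursors. Wild-type replicate 1 has no knockout library of its number and adds nothing to the genotype estimate of that fit. It rests on 2 wild-type and 2 knockout libraries, with hardly any spread between libraries left to measure, so these counts are fragile. Deviations from the group means of same-numbered libraries correlated across genes at 0.2 and 0.308 in dividing and 0.226 and 0.208 in non-dividing precursors. With 2 knockout libraries their deviations mirror each other. Pairing the same wild-type libraries with the other knockout library therefore gave the same values with the opposite sign. These correlations cannot decide whether same-numbered libraries are paired. Summed dividing precursors of 45 to 118 cells per library limit the precision of every gene here.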
